A study of Mus musculus with 2 samples.

Results

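Matrix metalloproteases are zinc-dependent proteases that cut collagen and other proteins of the extracellular matrix, and the tissue inhibitors of metalloproteases (TIMPs) are small proteins that block their active site. RNA of 10 genes of these families (Mmp2, Mmp9, Mmp11, Mmp14, Mmp19, Mmp23 and Timp1 to Timp4) was compared between a wild-type and a progesterone receptor (PR) knockout ovary. They were chosen by symbol, from a list drawn up with earlier results of these data known. Every probe set whose only gene symbol in the platform annotation was one of these entered. This gave 25 probe sets of 34945 with a single symbol, or 10 of 18193 genes. All animals were C57BL/6 mice 24 to 28 days old primed with PMSG (pregnant mare serum gonadotropin, 5 IU), which stimulates follicle growth, and given 48 h later 5 IU of human chorionic gonadotropin (hCG), which triggers ovulation. Ovaries were collected 11 h after hCG. One group was wild type and the other carried a null PR gene, whose disrupted part the labels do not give. Each group has 1 array, and the sources used here do not say how many mice were pooled for it. No difference could therefore be tested against the spread between animals, and every value below is a single measurement of whole ovary. In whole ovary, fewer cells of a type and less RNA per cell cannot be told apart.

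In the ovary these proteins act on the follicle wall. Rupture at ovulation requires breakdown of the collagen-rich layers at the follicle apex, and the same proteases and inhibitors serve the remodelling that turns the ruptured follicle into a corpus luteum. Gonadotropins are known to raise Timp1 in ovulatory follicles, and PR is a transcription factor that granulosa cells make transiently after the ovulatory stimulus.

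Of the 10 genes, 9 were measured: Mmp2 and Timp4 had higher signals in the knockout ovary and Mmp19 and Timp1 lower ones, each by at least 1.5-fold, while Mmp9 was under the floor on both arrays. The signal is the MAS5 intensity of a probe set, on a linear scale. The median over probe sets other than controls, 36.2 for the wild-type array and 38.0 for the knockout array, served as a floor. A gene counted as measured where its brightest probe set (by mean log2 signal) reached the floor on at least 1 array, and lower signals were set to the floor. Differences are log2 knockout minus wild type. Of the 9 genes, 2 were at least 1.5-fold higher and 2 at least 1.5-fold lower. Of the 2 higher genes, Timp4 reached the floor on the knockout array only, with signals of 21.0 (wild type) and 57.8 (knockout). It thus counted as measured through the array where it was high, and its fold is against the wild-type floor. The background for these counts was 6.54% of 11316 measured genes at least 1.5-fold higher and 4.75% lower. Since the members were chosen with earlier results of these data known, the counts beside these shares are a description and no test. At 2-fold the counts were 0 and 0 of 9, beside 1.15% of all genes higher and 1.72% lower. The median difference of the 9 genes was 0.24, and that of all measured genes was 0.06; with the 70th percentile of each array as the floor these medians were 0.00 and 0.04, and with no floor and no filter 0.00 and 0.03. Over both directions 5 of 9 genes were higher and 4 lower in the knockout, beside 57.7% and 42.2% of all genes. This split rests on the brightest probe set of each gene. Mmp14 and Timp2 counted as lower by it, though their probe sets pointed both ways. The 5 Mmp genes had a median of 0.24 and the 4 Timp genes of 0.03. The only spread available on these arrays is among a gene's own probe sets, with a within-gene SD of 0.25 on the log2 scale over 4771 genes; it leaves out the spread between animals.

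**Figure D1:**
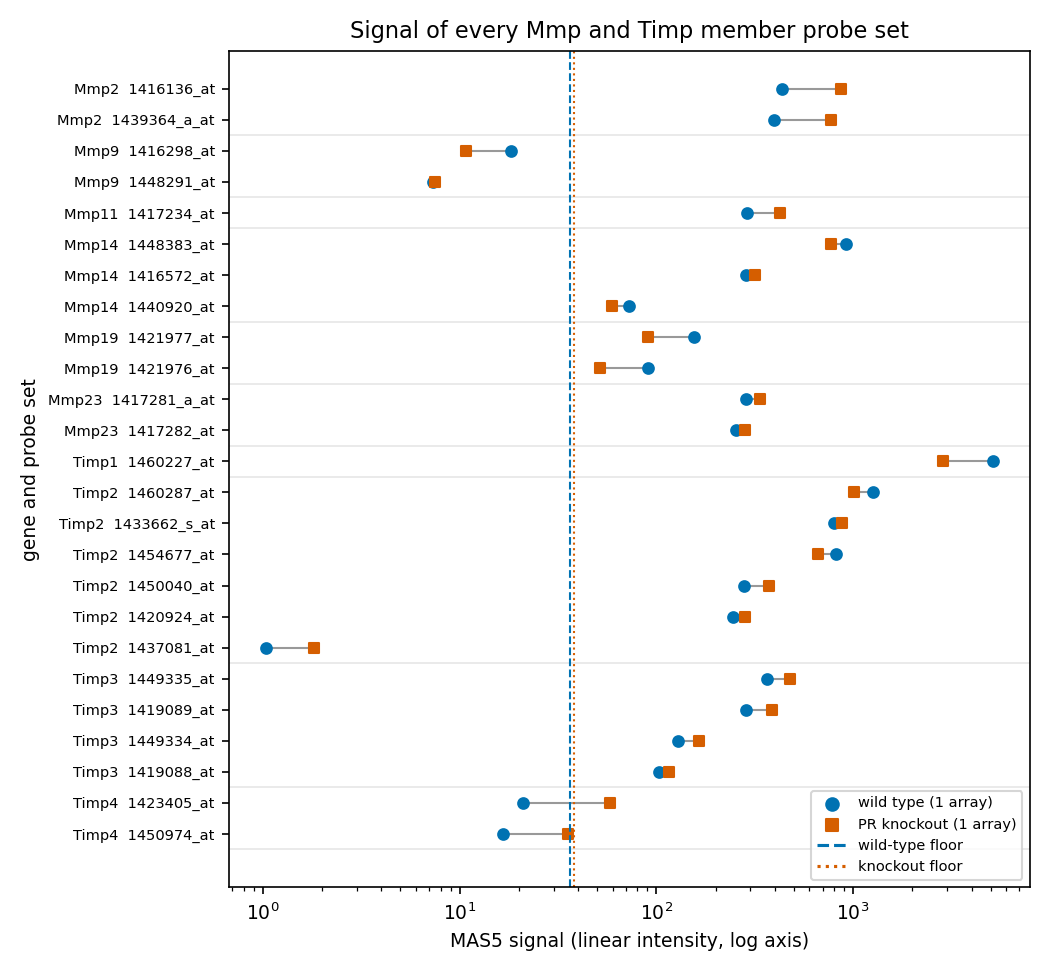
MAS5 signal (log axis) of each of the 25 probe sets on the wild-type array (circles) and the PR knockout array (squares), with the floor of each array as a vertical line; a grey line joins the values of 1 probe set. The 2 probe sets of Mmp2 lie to the right in the knockout, those of Mmp19 and the Timp1 probe set lie to the left, both Mmp9 probe sets lie under the floors, and the probe sets of Timp2 point both ways.

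Timp1 and Timp3, paralogs that lay on opposite sides of equal signal, are shown by the 250 bases before their transcription start, since a promoter sets how much of such a gene is transcribed. The sequences are RefSeq's for GRCm38.p6, written 5′ to 3′ on the plus strand, with GC boxes (GGGCGG or its reverse complement CCGCCC, a site of Sp-family factors) in capitals. Timp1 is at chrX:20869916-20870165 and Timp3 at chr10:86300162-86300411.
Timp1: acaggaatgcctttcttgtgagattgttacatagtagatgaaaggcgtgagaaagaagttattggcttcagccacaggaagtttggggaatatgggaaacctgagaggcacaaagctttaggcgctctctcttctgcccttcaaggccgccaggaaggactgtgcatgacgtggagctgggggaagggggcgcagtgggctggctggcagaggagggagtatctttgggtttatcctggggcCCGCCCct
Timp3: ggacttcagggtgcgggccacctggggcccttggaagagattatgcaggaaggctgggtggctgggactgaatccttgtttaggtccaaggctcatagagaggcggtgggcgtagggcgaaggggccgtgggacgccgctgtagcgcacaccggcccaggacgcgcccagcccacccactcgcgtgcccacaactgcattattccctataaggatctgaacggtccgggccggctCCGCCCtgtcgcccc
Each window held 1 GC box, which begins 8 bases before the start in Timp1 and 15 bases before it in Timp3. The RefSeq table held promoters of 7 of the 10 genes; Mmp2, Mmp9 and Mmp19 are named only. Searched on both strands, the GC box was present upstream of 5 of these 7 genes (Mmp11, Mmp14, Timp1, Timp2 and Timp3) and in 32.7% of all 32851 windows of the same length. The AP-1 site TGANTCA was in 0 of the 7 genes and in 6.75% of all windows. The hexamer AGAACA, the core bound by progesterone and glucocorticoid receptors, was upstream of Mmp11 and Mmp23, which makes 2 of the 7 genes, and in 16.1% of all windows. A member gene counted where any of its windows held the motif, while the percentages are of single windows, 32851 for 27025 genes, so the units differ. None of these 3 motifs contains another, and a match describes the sequence only.

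Among the gelatin-degrading enzymes, Mmp2 had a higher signal in the knockout ovary and Mmp9 was not measurable. Mmp2, gelatinase A, cleaves denatured collagen and collagen of basement membranes. Its probe set 1416136_at gave 436 (wild type) and 869 (knockout), and 1439364_a_at gave 397 and 769. The knockout array was the higher in both. The log2 differences were 0.99 and 0.95, or 1.99-fold and 1.93-fold higher, and these 2 probe sets differed from each other by far less than the within-gene SD. Of 11316 measured genes, 132 were at least as far towards the knockout as Mmp2, and among the 1131 genes in its bin of mean signal (of 10 equal bins) 4 were, Mmp2 included. Mmp9, gelatinase B, is abundant in neutrophils and macrophages. Its probe sets gave 18.3 and 7.33 for wild type and 10.8 and 7.48 for knockout, all under the floors, so no difference is given. Of 8 neutrophil marker genes with a probe set, 7 were likewise under the floor on both arrays, among them S100a8, S100a9, Mpo and Elane. The exception was Camp, with 160 (wild type) and 51.4 (knockout). The macrophage markers went the other way, with 8 of 8 measured, among them Lyz2 at 288 and 283. The part of these cells in the Mmp9 signal was not tested.

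Mmp14, which encodes a membrane-anchored collagenase that activates the Mmp2 proenzyme on the cell surface with TIMP2 as the bridge, showed no difference that its probe sets shared. The probe set 1448383_at gave 915 (wild type) and 775 (knockout), 1416572_at gave 286 and 316, and 1440920_at gave 72.2 and 59.5. The knockout signal was lower in 2 of the 3 and higher in the other, with log2 differences of -0.24, 0.14 and -0.28. In the brightest probe set this was 1.18-fold lower, less than the within-gene SD.

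Mmp11 and Mmp23 encode enzymes that furin-like proteases cut into active form inside the cell. Mmp11, stromelysin-3, had a single probe set with a wild-type signal of 288 and a knockout signal of 423, a log2 difference of 0.56. At 1.47-fold higher it lay just under the 1.5-fold line, and 846 of the measured genes (7.48%) were at least as far towards the knockout. Among the 1131 genes in its bin of mean signal 58 (5.13%) were. Mmp23, a metalloprotease known to be expressed in ovary, gave 285 and 337 in probe set 1417281_a_at and 253 and 283 in 1417282_at, in the same order. Both were slightly higher in the knockout, by 0.24 and 0.16 on the log2 scale, which is less than the within-gene SD.

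Mmp19, a secreted metalloprotease that cleaves basement membrane proteins, had a lower signal in the knockout in both of its probe sets. The wild-type and knockout signals were 156 and 90.6 in 1421977_at and 90.9 and 51.5 in 1421976_at. The log2 differences were -0.78 and -0.82, or 1.72-fold and 1.77-fold lower. Of all measured genes, 321 (2.84%) were at least as far towards lower signal in the knockout, and among the 1131 genes in its bin of mean signal 42 (3.71%) were. The signals of Mmp19 were modest. With the 70th percentile of each array as the floor (121 for the wild-type and 128 for the knockout array), its knockout signal was under the floor. The difference of -0.29 in that setting is against the knockout floor and is a bound. In the RefSeq gene table Mmp19 overlaps Tmem198b, whose brightest probe set gave 168 and 136.

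The inhibitor genes differed in direction from one another. Timp1, a secreted inhibitor of most metalloproteases that also binds the Mmp9 proenzyme, gave 5160 (wild type) and 2849 (knockout). The knockout value was lower by 0.86 on the log2 scale, or 1.81-fold. Only 1 probe set reads Timp1, so no second probe set bears on this value. Of all measured genes, 276 (2.44%) were at least as far towards lower signal, and among the 1132 genes of the bin with the highest mean signal 28 were.

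Timp2, which inhibits metalloproteases and takes part in activating the Mmp2 proenzyme, was read by 6 probe sets that pointed in different directions. The brightest, 1460287_at, gave 1254 (wild type) and 1008 (knockout), and 1454677_at gave 815 and 664. Both were lower in the knockout, by -0.32 and -0.30 on the log2 scale. The other measured probe sets were higher: 1433662_s_at gave 803 and 877, 1450040_at gave 278 and 374, and 1420924_at gave 244 and 282, with log2 differences of 0.13, 0.43 and 0.21. Thus 2 of 5 measured probe sets were lower and 3 higher, with an SD of 0.33 between them and a mean of 0.03, and the direction of Timp2 depends on the probe set. The sixth, 1437081_at, was under the floor on both arrays at 1.03 and 1.81.

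Timp3, which binds to the matrix and also inhibits ADAM and ADAMTS proteases, was slightly higher in the knockout in 4 of 4 probe sets. The signals in wild type and knockout were 366 and 476 in 1449335_at, 286 and 388 in 1419089_at, 128 and 165 in 1449334_at, and 103 and 115 in 1419088_at. The log2 differences ran from 0.16 to 0.44 with an SD of 0.12 between probe sets, and the brightest was 1.30-fold higher. This is under the 1.5-fold line, and 15.9% of all measured genes were at least as far towards the knockout. Among the 1132 genes in its bin of mean signal 75 (6.63%) were.

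Timp4, an inhibitor with a narrower tissue distribution, was under the floor in the wild type. Its probe set 1423405_at gave a wild-type signal of 21.0, under the floor, and a knockout signal of 57.8, above it. That is at least 1.60-fold higher, with a log2 difference of 0.67 against the wild-type floor. By this difference, 499 of all measured genes (4.41%) were at least as far towards the knockout. Among the 1132 genes in its bin of mean signal 74 (6.54%) were. The other probe set, 1450974_at, gave 16.6 and 35.5, both under the floors. In the RefSeq gene table Timp1, Timp3 and Timp4 each lie inside a synapsin gene, Syn1, Syn3 and Syn2 in that order. The brightest probe sets of these host genes were under the floor on both arrays, with wild-type and knockout signals of 28.2 and 19.1 for Syn1, 17.7 and 15.8 for Syn3, and 13.4 and 24.9 for Syn2.

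**Figure D2:**
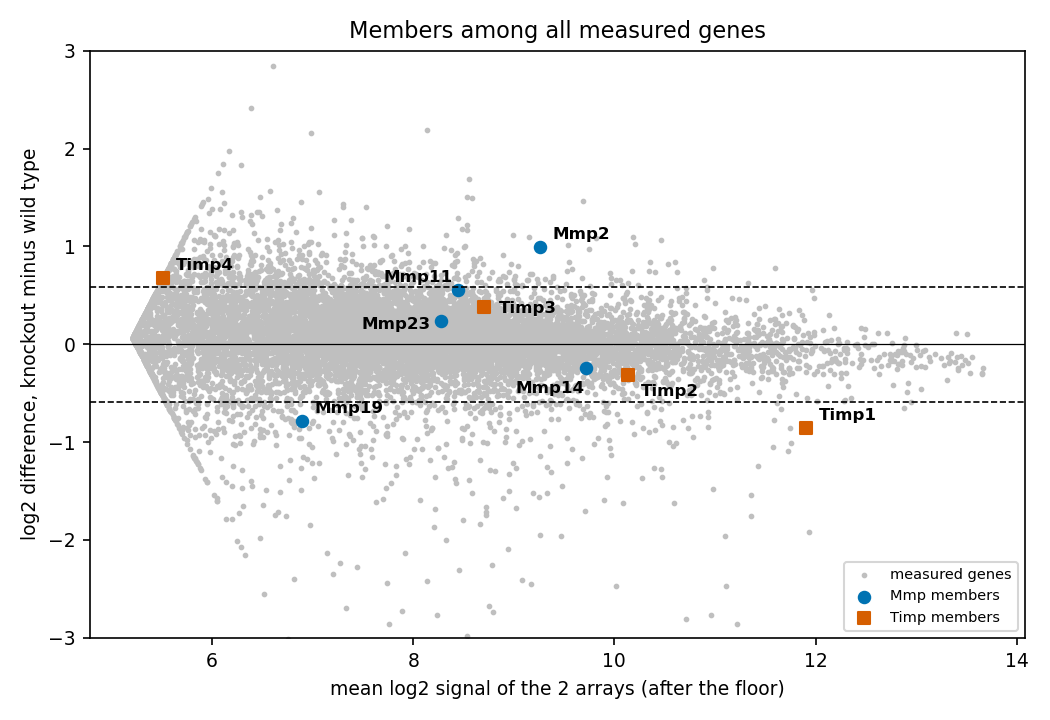
Log2 difference (knockout minus wild type) against mean log2 signal after the floor for the 11316 measured genes (grey), with the 9 measured Mmp (circles) and Timp (squares) genes named; dashed lines mark 1.5-fold, and 9 genes beyond 3 on the log2 scale are outside the plotted range. Mmp2 and Timp4 lie above the upper line, Timp1 and Mmp19 below the lower line, and the other 5 between them.

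Other metalloprotease genes mostly had signals under the floors. Of 17 further Mmp genes, 12 had a probe set named for them in the annotation used here, and 9 of these were under the floor on both arrays, including the collagenase gene Mmp13 and the stromelysin gene Mmp10. The 3 that were measured lay close to or under the floor, and 0 of 3 were 1.5-fold apart once signals under the floor were set to it. Mmp3, stromelysin-1, gave 40.3 (wild type) and 13.6 (knockout), the latter under the floor, with a log2 difference of -0.09 against the knockout floor. Mmp16 gave 39.6 and 46.4, and Mmp17 gave 24.7, under the floor, and 38.0. The log2 difference of Mmp17 was 0.07 against the wild-type floor. Mmp16 and Mmp17 encode membrane-anchored enzymes.

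Of genes that activate, bind or otherwise inhibit metalloproteases, 14 of the 17 measured were within 1.5-fold, beside 10038 of all 11316 measured genes. Of 19 genes listed, 18 had a probe set and 17 were measured. At least 1.5-fold higher was 1 (5.88%) and at least 1.5-fold lower were 2 (11.8%), with a median of -0.01. Over all measured genes these shares were 6.54% and 4.75%. The protease trap gene A2m gave a wild-type signal of 36.5, at the floor, and a knockout signal of 131, at least 3.59-fold higher, a bound since the wild-type signal was not clearly above the floor. Cd44, a hyaluronan receptor that docks Mmp9 and Mmp14 at the cell surface, gave 467 and 300, a log2 difference of -0.64, with 3 probe sets from -0.74 to -0.38. The serine protease inhibitor gene Tfpi2 gave 114 and 73.3, a log2 difference of -0.63. Furin, the protease that activates Mmp14, gave 365 and 321, and Reck, a membrane-bound inhibitor of Mmp2, Mmp9 and Mmp14, gave 161 and 197. The endocytic receptor Lrp1, which clears these enzymes and inhibitors, gave 949 and 1046. The last 3 were under 1.5-fold, at -0.19, 0.29 and 0.14.

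Of 18 matrix genes whose products these enzymes can cut, 17 were within 1.5-fold, beside 10038 of all 11316 measured genes. Their median was 0.02 on the log2 scale, beside 0.06 for all measured genes. The collagen gene Col1a1 gave 1513 (wild type) and 1718 (knockout), Col3a1 7550 and 7498, and the basement membrane collagen gene Col4a1 7569 and 7361. The exception was Vcan, versican, a proteoglycan of the cumulus and follicle matrix, with 4822 and 1424. Its log2 difference was -1.76, with 4 probe sets from -2.98 to -0.54.

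**Figure D3:**
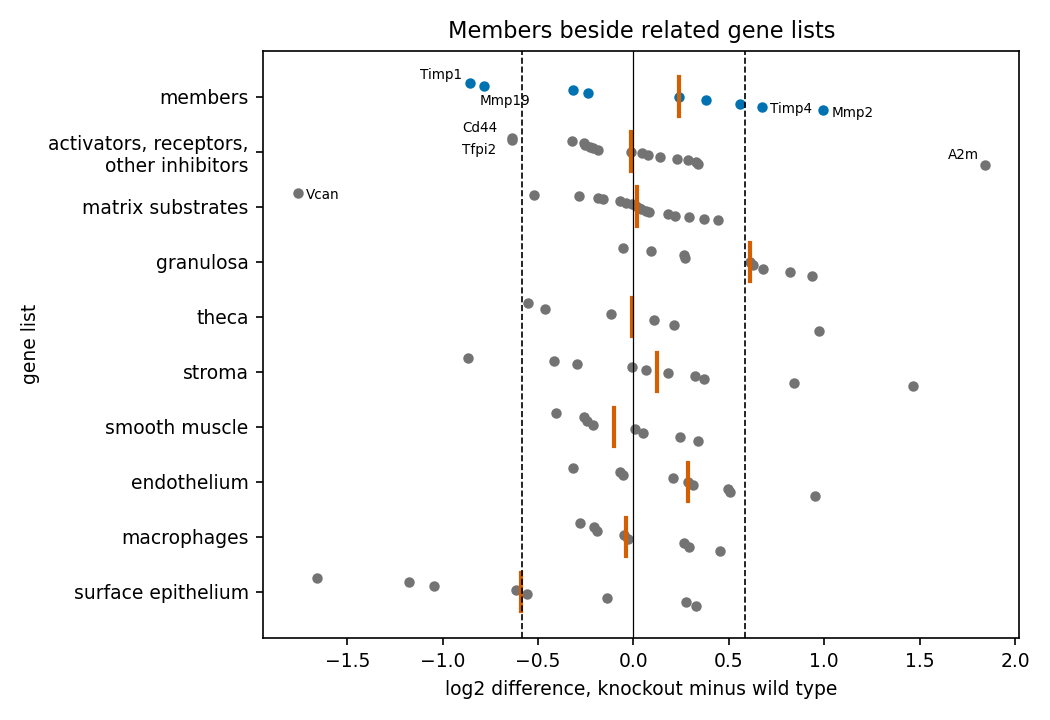
Log2 difference (knockout minus wild type) of each measured gene in the Mmp and Timp set, in 2 related lists and in 7 lists of cell type markers; each point is 1 gene, orange bars are list medians and dashed lines mark 1.5-fold. The members spread from -0.86 for Timp1 to 0.99 for Mmp2, while all matrix substrate genes except Vcan lie between the lines.

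Cell type markers were read beside these values. The background for their counts was 6.54% of all 11316 measured genes at least 1.5-fold higher and 4.75% lower, with a median of 0.06. Of 10 stroma and fibroblast markers, cells in which Mmp2 is commonly found, 2 were at least 1.5-fold higher and 1 lower in the knockout. Their median was 0.12 and their summed signal was 18041 (wild type) and 20097 (knockout); 0 of 10 were under the floor on either array. Of the 9 granulosa cell markers 5 were at least 1.5-fold higher and 0 lower, with a median of 0.61 and summed signals of 15449 and 17774. Endothelial markers had a median of 0.29 over 9 genes and summed signals of 1667 and 1999, with 1 at least 1.5-fold higher. Theca markers had a median of -0.01 over 6 genes, with 1 at least 1.5-fold higher and 0 lower. They ran from -0.55 for Star to 0.97 for Ptch1. Smooth muscle markers had a median of -0.10 over 8 and macrophage markers -0.04 over 8, with 0 at least 1.5-fold apart in either list. Of the 8 surface epithelium markers 4 were at least 1.5-fold lower and 0 higher, with a median of -0.59 and summed signals of 1514 and 1024. The part of these cell types in the differences of Mmp2, Mmp19, Timp1 and Timp4 was not tested. Of the oocyte markers, which check the labelled tissue, 8 of 8 were measured, and all 5 oviduct markers with a probe set were under the floors.

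The PR gene gives no check of the genotype labels, since its 3 probe sets were near or under the floor on both arrays. The log2 differences of the members kept their direction under the 3 rescalings tried. The split of all genes at least 1.5-fold apart did not: 740 were higher and 538 lower as deposited, against 583 and 645 after median centring, 566 and 613 after quantile normalization, and 472 and 724 after removal of the trend with signal. Timp4 lay under the 1.5-fold line after removal of that trend, at 0.55.

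**Figure D4:**
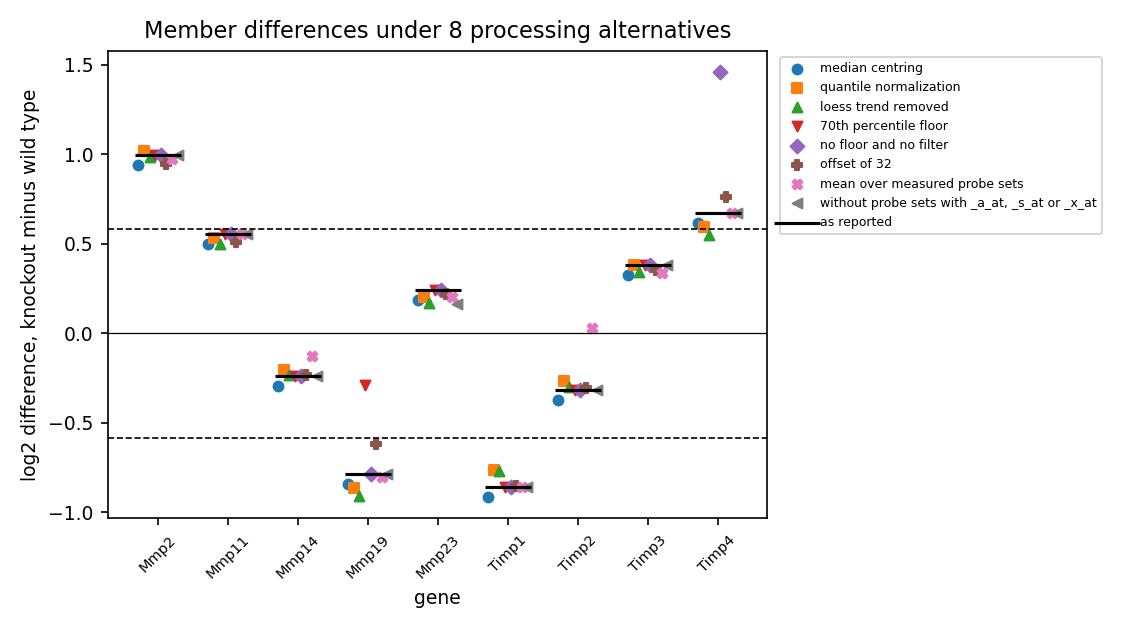
Log2 difference (knockout minus wild type) of each measured member as reported (black bar) and under 8 processing alternatives (symbols); dashed lines mark 1.5-fold. Mmp2 and Timp1 lie outside the lines under all 8, Mmp19 comes inside with the 70th-percentile floor, Timp4 comes inside without the loess trend and has no value with that floor, and Timp2 turns sign with the mean over probe sets.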

How the data were processed

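RNA of whole ovary was hybridized to Affymetrix Mouse Genome arrays, 1 per genotype. The authors deposited linear intensities, for which the submitters' processing notes name MAS5 and Affymetrix Expression Console version 1; scaling to a common target was seen in the values, whose 2% trimmed mean was 150.0 on both arrays. No genome build is given in the sources used here. Of 45101 probe sets, 64 controls were set aside, and 34945 carried a single symbol. Signals under each array's median were set to that median, and log2 differences were taken with pandas 2.3.3 and numpy 2.4.6. A gene was read by its brightest probe set. With 1 array per genotype nothing could be tested; the number of arrays limits precision. All members were named, and from other lists at most 4 genes per direction at least 1.5-fold apart, plus examples under that line that were chosen after their values were seen. The members, lists and motifs were chosen with earlier results of these data known. The calculation was tested on simulated data, with changes of at least 2-fold planted only in genes well above the wild-type floor. That check does not cover signals near the floor or smaller differences. Alternatives were 3 rescalings, 2 other floors, an offset, 2 probe set rules and a 2-fold threshold. RefSeq tables of GRCm38.p6 gave names, overlaps and promoters, and all 10 gene IDs were found in them.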

Additional observations from a re-analysis of the deposited data

How the results depend on the processing

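Over 8 alternatives in scaling, floor, offset and probe set, 8 of the 9 measured members kept their direction, Timp4 over the 7 that measured it. The exception was Timp2, at 0.03 with the mean over measured probe sets. Mmp2 ran from 0.94 to 1.02 and Timp1 from -0.91 to -0.76, both beyond 1.5-fold throughout. Members at least 1.5-fold higher numbered 1 without the loess trend and 1 with the 70th-percentile floor, where Timp4 was not measured. Those lower numbered 1 with that floor, where Mmp19 was at -0.29 with its knockout signal set to the floor. They numbered 3 with no floor and no filter, where Mmp9 entered. At 2-fold the counts were 0 and 0. Timp4 was 1.46 with no floor and no filter. The median of the members, 0.24, was 0.00 with the 70th-percentile floor and with no floor and no filter, settings that leave out Timp4 or let in Mmp9. Over all genes, counts higher and lower were 265 and 322 of 8160 measured with the 70th-percentile floor. They were 2720 and 2979 of 18193 with no floor and no filter, and 130 and 195 of 11316 at 2-fold. The 2979 of 18193 is a larger share than the 4.75% lower in the main setting. Of the members, 8 were measured with the 70th-percentile floor and 10 with no floor and no filter. The count of higher genes was 472 of 11316 without the loess trend and 412 of 11316 with the offset of 32. The cause was not tested, apart from the fewer or more genes that a floor admits. No paired analysis was possible because each genotype has 1 array, and no replicate could be left out.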

Other observations

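Fabp4, a fatty acid binding protein gene of fat and endothelium, gave 335 (wild type) and 70.9 (knockout), while the other 4 fat markers with a probe set, among them Adipoq, were under the floor on both arrays. Camp, an antimicrobial peptide gene of neutrophil granules, gave 160 and 51.4 although the other neutrophil markers were under the floors. Both genes are named after their values were seen.

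Control probe sets along Actb, a cytoskeletal actin gene, and Gapdh, a glycolytic enzyme gene, read the transcripts at their start, middle and end. The log2 differences were -0.32, -0.36 and -0.31 for Actb and -0.18, -0.20 and -0.24 for Gapdh, so the positions of each gene differed from one another by less than 0.25, the within-gene SD. Of 6 housekeeping genes measured, 6 had lower signals in the knockout, beside 42.2% of all measured genes. Their median was -0.13.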
